A study of Mus musculus with 6 samples.

Results

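The transcripts described here are mouse long intergenic noncoding RNAs (lincRNAs), read by the probes of a custom Agilent array whose names start with mouselincRNA or MM9LINCRNAEXON. They were chosen by name alone: 649 probes carry a mouselincRNA number and 83 an exon number, which makes 732 of the 60915 probes left once control and negative-named spots are set aside. A name consists of the class, a running number and a + or - sign, as in mouselincRNA1606-, and the sign is taken here as the strand of the locus. The sources used do not state whether the sign gives the strand of the transcript or of the probe. The names hold no chromosome or coordinates, so positions, neighbouring genes and sequences of these loci are not analysed here. The 649 probes cover 332 numbers, of which 317 have a probe for each strand, and the 83 exon probes cover 71 numbers, 12 of them with both strands. Each of the 732 probes has 1 spot per array.

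LincRNAs are transcribed from stretches between protein-coding genes, and many are capped, spliced and polyadenylated like messenger RNA without encoding a protein. They tend to be less abundant and more restricted to particular cell types than messenger RNA, and some act on chromatin or on genes close to their own locus. Many lincRNA loci also carry transcripts from the opposite strand, so the strand a probe reads matters. Parathyroid hormone (PTH) binds a G protein-coupled receptor on bone-forming cells and raises cyclic AMP there. Given in pulses it favours formation of mineralised tissue, and the series asks which long noncoding RNAs go with such pulses in cementoblasts, the cells that lay down the cementum of tooth roots.

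The cells were OCCM-30, an immortalised mouse cementoblast-like line. In the PTH group they received PTH at 100 ng/ml, carried in 0.1% acetic acid, for the first 6 h of a 24 h cycle and plain fresh medium for the other 18 h. In the control group 0.1% acetic acid was given on the same schedule, and both groups were harvested after 2 cycles. The series' design text calls the samples biological replicates, 3 per group, and 1 array was hybridised per sample. In such bulk RNA, fewer cells that make a transcript and less of it per cell cannot be told apart. None of 18 marker genes listed for cementoblasts and other cell types has a probe that the files pair with a gene, so the identity of the cells was not checked.

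The first number of the barcode field in each file header is taken here as the row of the array on its slide. It was 1 for the 3 control arrays and PTH replicate 1, called the upper row below. For PTH replicates 2 and 3 it was 2, called the lower row. A level below is the log2 of a probe's background-subtracted intensity minus the 75th percentile of all probes on that array, and a difference is the mean PTH level minus the mean control level of the same probe. Levels of different probes are not ranked against each other, because probes differ in affinity. Control replicate 2 was nearer to the PTH mean than to the mean of the other controls on 67% of the tested lincRNA probes and on 68.9% of the 36881 probes of the whole array with a value on every array, so results that rest on it are given with and without it.

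Most of the lincRNA probes were not marked as well above background in these cells. On control replicates 1, 2 and 3, 31.0%, 27.9% and 33.0% of the 732 probes were marked by the scanner software as well above background, and on PTH replicates 1, 2 and 3 31.6%, 20.1% and 27.9%. PTH replicate 2 was the lowest, and the other arrays of both groups overlapped. The mean was 30.6% ± 2.55 on control arrays and 26.5% ± 5.86 on PTH arrays (SD, n = 3 each), a difference of -4.13 percentage points (two-sided exact permutation p = 0.4, where 0.1 is the smallest that 3 against 3 arrays allow). By the software's weaker mark, a signal that is positive and significant, the lincRNA share was 57.4% ± 3.60 on control and 49.8% ± 9.38 on PTH arrays (SD, n = 3 each). Over all 60915 probes the share well above background was 63.8% on control and 59.0% on PTH arrays.

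The software's own figure for the spread of an array's negative controls was 42.1 intensity units on PTH replicate 2 against 16.0 to 21.4 on the others, and its part in the mark was not tested. With detection read instead as a signal above the 95th percentile of the 300 negative-named spots of the same array, 36.5% of the lincRNA probes were detected on PTH replicate 2. The group means were then 37.0% ± 1.60 on control arrays and 36.4% ± 2.87 on PTH arrays (SD, n = 3 each). Of the 300 negative-named spots 0 to 8 per array were marked as well above background, up to 2.67%, which is the background to the shares by that mark. It does not apply to the shares by the negative-spot threshold, which is set from these same spots.

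Exon probes were detected more often than locus probes. The share of the 83 exon probes was 46.8% ± 3.32 on control arrays and 41.4% ± 8.72 on PTH arrays (SD, n = 3 each), against 28.6% ± 2.47 on control arrays and 24.6% ± 5.53 on PTH arrays (SD, n = 3 each) for the 649 locus probes. Exon probes were ahead on 6 of 6 arrays, by 17.5 ± 2.59 percentage points (SD, n = 6, two-sided exact sign-flip permutation p = 0.031, the smallest possible, adjusted 0.031 over 2 comparisons). The 732 probes together exceeded the 1104 lincRNA probes with a human name by 4.51 ± 1.11 percentage points on 6 of 6 arrays (SD, n = 6, exact permutation p = 0.031, adjusted 0.031). That lead includes the exon probes, and the mouse-named locus probes alone were ahead of the human-named by 2.53 ± 1.09 percentage points (SD, n = 6, range 1.07 to 4.43), with no test of this difference. The tests given cover the differences between arrays only, not the choice of probes. Among exon probes with a - sign, all 3 PTH arrays lay below all 3 control arrays, at 47.5% against 58.6% (exact permutation p = 0.1, the smallest possible), but by the negative-spot threshold the means were 63.6% and 62.6%.

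**Figure D1:**
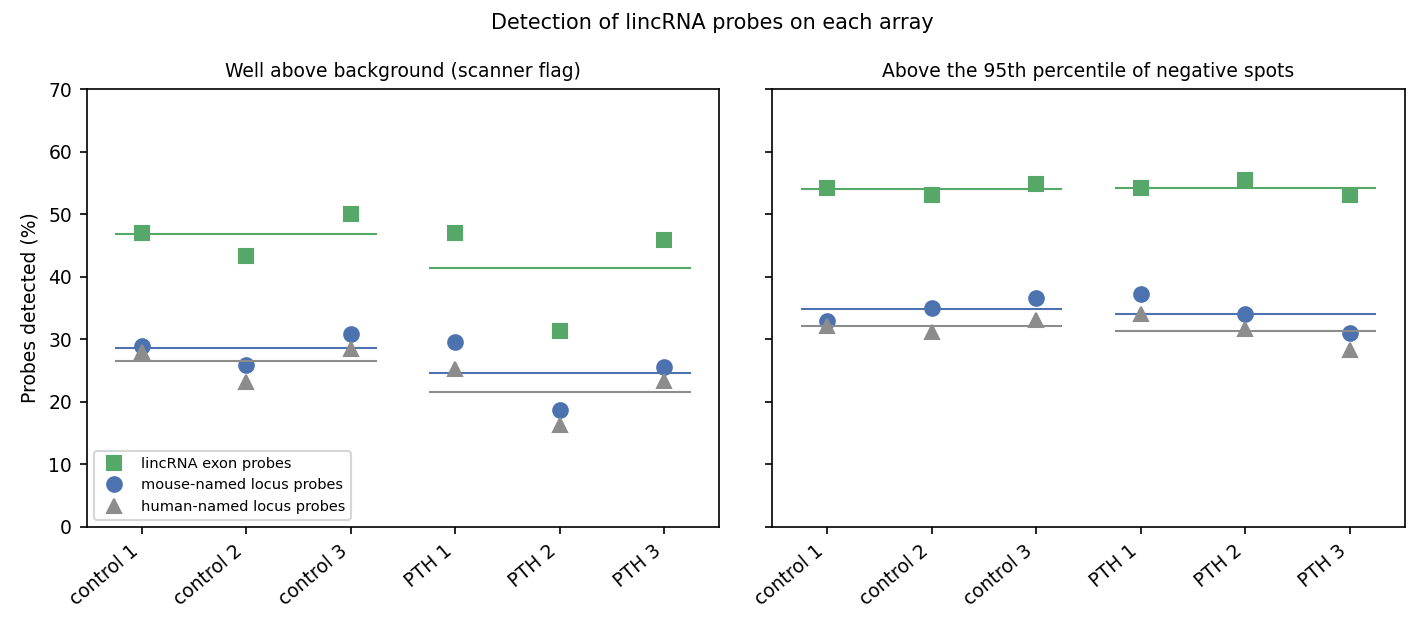
Share of probes detected (%) on each of the 6 arrays for lincRNA exon, mouse-named and human-named probes, by the scanner's mark (left) and by a threshold from negative spots (right). Points are arrays and lines are group means over 3 arrays: PTH replicate 2 is lowest for every class on the left (exons 31.3%) and not on the right (exons 55.4%), while exons lie above the other classes on every array in both.

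Where a lincRNA number was detected, it was mostly detected on 1 strand. On all 6 arrays 121 of the 649 locus probes (18.6%) and 26 of the 83 exon probes (31.3%) were well above background, and 429 (66.1%) and 36 (43.4%) were so on no array. Of the 317 numbers with both strands on the array, 93 (29.3%) were detected on 1 strand, 14 (4.42%) on both and 210 (66.2%) on neither. The strands shared the single-strand loci about evenly, 43 on + and 50 on -, and 57 of 322 + probes (17.7%) and 64 of 327 - probes (19.6%) were detected in all. With shares this low, few numbers have both strands detected even where the strands are unrelated. Whether the strands are linked was not tested. Of the 12 exon numbers with both strands, 3 were detected on both, 2 on - alone and 0 on + alone. The 17 numbers detected on both strands are taken up strand by strand, after the comparison of the groups.

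The comparison of PTH with control asks which of these lincRNAs differ in level after 2 pulses of the hormone. The test took in probes that the software marked on every array of either group, and 197 of the 732 met this, 162 locus and 35 exon probes. Of the 197, 0 passed a Benjamini-Hochberg adjusted p under 0.05 in limma, against 2 of 37011 over all tested probes (0.0054%, higher 0.0054%, lower 0%). At an unadjusted p under 0.05 there were 13 (6.6%), 8 higher and 5 lower in PTH, where the same fit marks 15.1% of all probes, 8.88% higher and 6.22% lower. The lower side includes probes that entered the test through the control arrays alone, and over the 147 probes marked on all 6 arrays there were 12 (8.16%), 9 higher and 3 lower, against 16.3% of all probes so filtered. The groups did not overlap on 19 of the 197 (9.64%), against 21.3% of all probes, with all 3 PTH arrays above on 13 (all probes 12.6%) and below on 6 (all probes 8.73%). The lower row holds PTH arrays alone, so a fit with the slide row as a block compares PTH replicate 1 with the 3 controls. In it 0 of the 197 passed, and 9 (4.57%) had an unadjusted p under 0.05, against 5.07% of all probes. With the arrays weighted by their own scatter, 42 of the 197 (21.3%) passed the adjusted threshold, against 32.9% of all 37011. Control replicate 3 had a weight of 9.42 there, against 0.39 and 0.32 for control replicates 1 and 2. The control side of that fit thus rests largely on 1 array. At an unadjusted p under 0.05 the 13 became 8 without control replicate 1 (4.06%, all probes 8.65%), 38 without control replicate 2 (19.3%, all probes 33.1%) and 21 without PTH replicate 1 (10.7%, all probes 12%).

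The median difference of the 197 probes was 0.0026 in log2 units, between quartiles of -0.10 and 0.10, and over all 37011 probes it was 0.01, between quartiles of -0.10 and 0.12. With the slide row as a block the medians were 0.07 and 0.04. With no filter on dim probes, the median over all 732 lincRNA probes was 0.26, against 0.06 over all probes, and 465 of the 732 were well above background on no array. Among the 197 the extremes were -0.59 and 1.21, and 101 probes were on the higher and 96 on the lower side. The lincRNA probes are dim: 92 of the 197 lay in the lowest of 4 equal bins of all tested probes by signal and 12 in the highest. From the lowest bin to the highest, the share at an unadjusted p under 0.05 was 4.35%, 7.02%, 8.33% and 16.7% for the lincRNA probes and 7.95%, 11.8%, 17.6% and 23% for all probes. The difference between these shares was not tested, and in the highest bin 2 of 12 lincRNA probes carry the share.

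Intervals were wider on the lincRNA probes than over all probes. The median 95% confidence interval (CI) of a lincRNA probe reached 0.29 to either side on the log2 scale, against 0.22 over all probes. The median SD of the lincRNA probes was 0.12 among control and 0.15 among PTH arrays, and that of all probes 0.12 and 0.08. The software's own error of a single spot had a median of 12.1% of the signal on the lincRNA probes, against 10.3% over all tested probes. Of the 197 probes, 147 (74.6%, all probes 86.1%) were detected on all 6 arrays. Another 50 (25.4%, all probes 13.8%) passed the filter through the control arrays alone. All 50 missed the mark on PTH replicate 2, 41 of them on that array alone. Over the whole array, 5092 of the 5106 probes that passed through the control arrays alone missed the mark on PTH replicate 2. No lincRNA probe was well above background on every array of 1 group and no array of the other.

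No probe passed, so the 8 on the higher side and the 8 on the lower side with the smallest unadjusted p are given as values. Among those on the higher side, mouselincRNA1606- was the only one of the 197 with a difference of at least 2-fold and no overlap between groups. On the higher side alone this makes 0.508% of the 197, near the 0.449% of all probes. The intensities of mouselincRNA1606- were 25642, 50706 and 34707 intensity units on the control arrays and 56100, 77822 and 103783 on the PTH arrays. Its levels were 5.45, 6.65 and 5.98 on control replicates 1, 2 and 3 and 6.85, 7.17 and 7.68 on PTH replicates 1, 2 and 3, so that the lowest PTH array lay just above control replicate 2. The difference was 1.21 (95% CI 0.48 to 1.93, limma adjusted p = 0.25), a ratio of 2.31. It was under 2-fold without control replicate 1, at 0.92, without PTH replicate 3, at 0.98, and with the slide row as a block, at 0.82. The + strand of the same number was listed at 14, 12 and 17 intensity units on the control arrays and 20, 13 and 16 on the PTH arrays, and was marked as well above background on 0 arrays.

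The exon probe MM9LINCRNAEXON10343+ had the smallest unadjusted p of the 197. It read 0.19, 0.74 and 0.32 on control replicates 1, 2 and 3 and 1.16, 1.26 and 0.97 on PTH replicates 1, 2 and 3. All PTH arrays were above all controls, and the highest control was again replicate 2. The difference was 0.72 (95% CI 0.38 to 1.05, limma adjusted p = 0.25), a ratio of 1.64. For MM9LINCRNAEXON10569- the levels were 0.56, 1.30 and 0.70 on the control arrays and 1.33, 1.37 and 1.33 on the PTH arrays. Here control replicate 2 lay just under PTH replicate 3, the lowest PTH array, and the other controls lay well under both. The difference was 0.49 (95% CI 0.08 to 0.89, limma adjusted p = 0.30).

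The levels of mouselincRNA1011+ were -0.72, -0.73 and -0.70 on the control arrays and -0.17, -0.57 and -0.44 on the PTH arrays, with the control arrays nearly equal and the PTH arrays spread above them. The difference was 0.32 (95% CI 0.09 to 0.56, limma adjusted p = 0.28). On mouselincRNA1040+ the levels were -1.20, -0.76 and -0.91 on the control arrays and -0.43, -0.69 and -0.52 on the PTH arrays, and the difference was 0.41 (95% CI 0.13 to 0.69, limma adjusted p = 0.27). The remaining probes on this side were mouselincRNA1480+ at 0.25, mouselincRNA0901- at 0.34 and mouselincRNA0706+ at 0.34, with limma adjusted p of 0.28 to 0.32. With the slide row as a block mouselincRNA1011+ was at 0.55 and mouselincRNA0901- at 0.20, and without control replicate 1 mouselincRNA0706+ was at 0.18. On all 8 the PTH arrays lay above the controls, which the choice by smallest p largely fixes, and all 8 were detected on every array.

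On the lower side the differences were smaller or closer to background. MM9LINCRNAEXON10105- had the smallest unadjusted p there, with levels of -0.80, -0.82 and -0.79 on the control arrays and -1.11, -0.96 and -1.12 on the PTH arrays. Its controls lay close together and all PTH arrays lay under them, with a difference of -0.26 (95% CI -0.42 to -0.10, limma adjusted p = 0.26). For mouselincRNA1171+ the levels were -1.83, -2.31 and -2.16 on the control arrays and -2.45, -2.45 and -2.57 on the PTH arrays, again without overlap, and the difference was -0.39 (95% CI -0.69 to -0.09, limma adjusted p = 0.29). The probe mouselincRNA0538- differed by -0.25 (95% CI -0.46 to -0.03, limma adjusted p = 0.30), and by -0.16 with the slide row as a block. For mouselincRNA1171+ the difference was -0.25 without control replicate 1 and -0.19 after normexp background correction. Normexp fits and subtracts background on each array and adds an offset, here 50 intensity units, before log2 is taken. Such an offset by itself makes the log2 differences of dim probes smaller.

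The other 5 on the lower side passed the filter through the control arrays alone, so a lower PTH signal was part of how they entered the test. The probe mouselincRNA0293+ read -3.81, -3.47 and -3.70 on the control arrays and -4.06, -4.56 and -4.14 on the PTH arrays. It was well above background on 3 control arrays and 1 PTH array, with a difference of -0.59 (95% CI -1.02 to -0.17, limma adjusted p = 0.28). MM9LINCRNAEXON10627+ differed by -0.56 (95% CI -1.19 to 0.06, limma adjusted p = 0.36), and control replicate 2, at -3.80, lay below PTH replicates 1 and 3, at -3.63 and -3.64. The probes mouselincRNA1424+, mouselincRNA0392+ and MM9LINCRNAEXON11382- differed by -0.49, -0.37 and -0.33, with limma adjusted p of 0.30 to 0.36. Each was well above background on 2 of 3 PTH arrays. After normexp background correction the differences of these dim probes were -0.17 for mouselincRNA0293+, -0.26 for MM9LINCRNAEXON10627+, -0.12 for mouselincRNA1424+, -0.20 for mouselincRNA0392+ and -0.14 for MM9LINCRNAEXON11382-. Its offset makes such differences smaller, so these values do not tell whether the differences are unstable. With the slide row as a block MM9LINCRNAEXON11382- was at -0.0046.

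**Figure D2:**
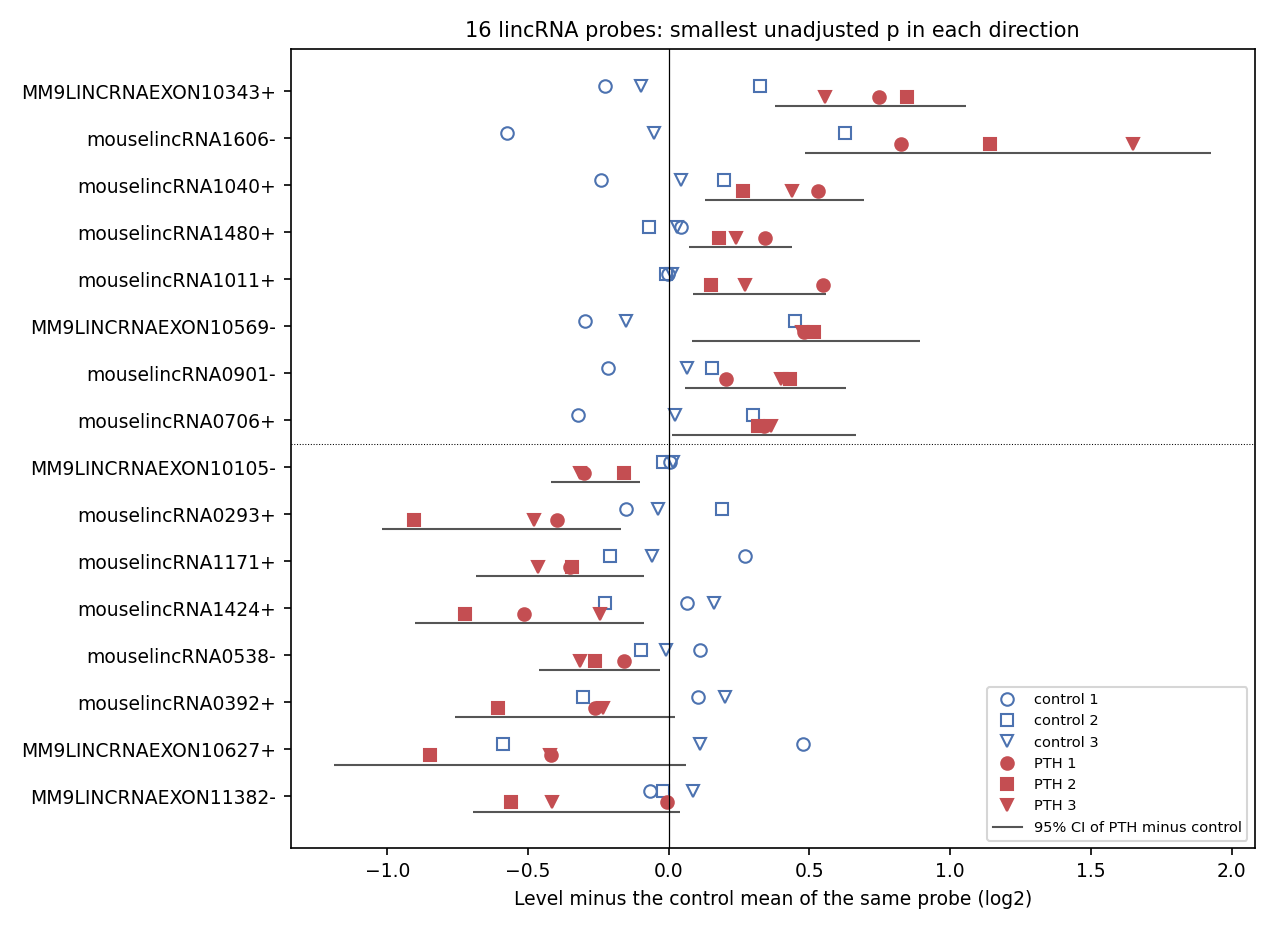
Levels on the 6 arrays of 16 lincRNA probes, the 8 with the smallest unadjusted p in each direction, each minus the mean of its own 3 control arrays (log2); open symbols are control and filled symbols PTH arrays, and bars are 95% confidence intervals of PTH minus control. Control replicate 2 (open square) lies next to the PTH arrays on MM9LINCRNAEXON10569-, mouselincRNA0706+ and MM9LINCRNAEXON10627+.

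The controls differed among themselves on several lincRNAs as much as the groups did. Over the 197 probes control replicate 1 stood a median of 0.21 (absolute log2 difference) from replicate 2 and 0.14 from replicate 3, which stood 0.13 from replicate 2. The same measure put control replicate 2 at 0.15, 0.14 and 0.11 from PTH replicates 1, 2 and 3. The PTH arrays also differed among themselves, with replicate 1 at 0.19 from replicate 2 and 0.14 from replicate 3, which stood 0.15 from replicate 2. Over all tested probes these PTH pairs stood at 0.11, 0.09 and 0.09, and the control pairs, in the order given above, at 0.195, 0.11 and 0.12. In order of level, the controls ran 1, 3, 2 or 2, 3, 1 on 59 and 57 of the 197, that is with replicate 3 in the middle, and over all tested probes these orders made up 34.5% and 32.6%. On 5 of the 197 (2.54%) the controls spanned at least 2-fold, against 1.27% of all tested probes. The 5 were mouselincRNA1606-, mouselincRNA0543-, mouselincRNA0413-, mouselincRNA0344- and MM9LINCRNAEXON10627+, picked out after their values were seen.

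On mouselincRNA0543- the levels were -1.06, 1.28 and 0.09 on control replicates 1, 2 and 3 and 0.82, 1.69 and 1.34 on PTH replicates 1, 2 and 3. Control replicate 2 lay above PTH replicate 1, and control replicate 1 lay far below every other array. The difference was 1.17 (95% CI -0.04 to 2.39, limma adjusted p = 0.34), a ratio of 2.26, which makes 2 of the 197 (1.02%) at 2-fold or more, against 0.643% of all probes. Without control replicate 1 the difference was 0.59 and with the slide row as a block 0.71, both under 2-fold. The levels of mouselincRNA0413- were -0.86, 1.21 and 0.30 on the control arrays and 0.65, 1.34 and 1.13 on the PTH arrays, in nearly the same order of arrays, with a difference of 0.82 (95% CI -0.25 to 1.90, limma adjusted p = 0.41). That became 0.29 without control replicate 1 and 0.43 with the slide row as a block. For mouselincRNA0344- they were 1.34, 2.69 and 2.24 on the control arrays and 2.33, 2.93 and 2.69 on the PTH arrays, with control replicate 1 the lowest again and a difference of 0.56 (95% CI -0.18 to 1.29, limma adjusted p = 0.41), or 0.19 without that array. A pattern of another kind was seen on mouselincRNA0627-, also picked out by its values, where -1.13, -1.25 and -1.13 on the control arrays and -0.94, -0.98 and 0.73 on the PTH arrays left PTH replicate 3 alone far above the rest.

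Without control replicate 2 the count of lincRNA probes past the adjusted threshold went from 0 to 14 of 197 (7.11%), 12 higher and 2 lower in PTH (limma). The same fit then called 15% of all tested probes, 8.56% higher and 6.46% lower, so the lincRNA share lay under the background. The 14 comprise 9 locus and 5 exon probes. Those of at least 2-fold were mouselincRNA0543- with a difference of 1.76 (95% CI 0.97 to 2.56), mouselincRNA1606- with 1.52 (95% CI 0.97 to 2.07) and mouselincRNA0413- with 1.32 (95% CI 0.57 to 2.07), where the background is 0.743%. The exon probes MM9LINCRNAEXON10343+ and MM9LINCRNAEXON10569- differed by 0.88 (95% CI 0.66 to 1.10) and 0.71 (95% CI 0.56 to 0.87). The others on the higher side were mouselincRNA0133-, mouselincRNA0188-, mouselincRNA0706+, mouselincRNA1040+, mouselincRNA1595-, MM9LINCRNAEXON10490+ and MM9LINCRNAEXON10664+, between 0.36 and 0.63. The 2 on the lower side were MM9LINCRNAEXON10627+ with -0.86 (95% CI -1.31 to -0.40) and mouselincRNA1171+ with -0.49 (95% CI -0.77 to -0.21). Of these, MM9LINCRNAEXON10627+ had entered the test through the control arrays alone. Removal of that array was a choice made with its position known, and the 14 share their PTH arrays and other controls with the fit on 6 arrays.

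At the 17 numbers detected on both strands, the + and - probes gave unlike differences on some and like ones on others. They comprise 14 loci and 3 exons. Of their 34 probes, 0 passed the adjusted threshold in limma, and on 3 the 95% confidence interval of the difference excluded 0: mouselincRNA0706+, mouselincRNA1040+ and mouselincRNA0538-. Such an interval amounts to an unadjusted p under 0.05, which the same fit gave for 6.6% of the 197 and 15.1% of all tested probes. The + and - differences had the same sign at 5 of the 17 numbers, and at 14 of the 17 both intervals included 0. The gap between the differences of the + and - probes had a median of 0.26 on the log2 scale. Probes of 1 number share their locus and their arrays and are not replicates, and the gap was not tested.

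The widest gap was at mouselincRNA0543. Its - probe varied over 2.34 log2 units among controls, whereas the + probe read -3.15, -3.30 and -3.08 on the control arrays and -2.89, -3.02 and -3.02 on the PTH arrays. The + probe differed by 0.20 (95% CI -0.05 to 0.45, limma adjusted p = 0.39), with all PTH arrays slightly above the controls. At mouselincRNA0413 the + probe read -1.83, -1.97 and -1.81 on the control arrays and -1.96, -1.94 and -1.86 on the PTH arrays, nearly level over the 6 arrays on which the - probe ranged from -0.86 to 1.34. At mouselincRNA1294 it was the + probe that varied, at 0.21, 0.99 and 0.69 on the control arrays and 0.75, 1.20 and 0.99 on the PTH arrays, while the - probe stayed between -2.78 and -2.33.

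At mouselincRNA0706 the + probe read 3.63, 4.25 and 3.97 on the control arrays and 4.29, 4.26 and 4.31 on the PTH arrays, and the - probe -0.63, -0.61 and -0.53 on the control arrays and -0.57, -0.61 and -0.53 on the PTH arrays. The PTH arrays nearly coincided on the + strand, just above control replicate 2, and no group difference was visible on the - strand, at 0.02 (95% CI -0.13 to 0.16, limma adjusted p = 0.90). The locus mouselincRNA1040 gave 0.41 (95% CI 0.13 to 0.69) on + and -0.04 (95% CI -0.18 to 0.11) on -. At mouselincRNA0538 the - probe was on the lower side, at -0.25, and the + probe differed by 0.03 (95% CI -0.12 to 0.18). The probes of mouselincRNA0133, mouselincRNA0522, mouselincRNA0544, mouselincRNA0939, mouselincRNA1235, mouselincRNA1377, mouselincRNA1512 and mouselincRNA1559 had intervals that included 0 on both strands, and their differences ran from -0.17 to 0.30.

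The 3 exon numbers detected on both strands were MM9LINCRNAEXON10664, MM9LINCRNAEXON11711 and MM9LINCRNAEXON11712, of which the last 2 have consecutive numbers. MM9LINCRNAEXON11711+ read 1.13, 2.12 and 1.67 on the control arrays and 1.71, 2.11 and 1.97 on the PTH arrays. It had control replicate 1 lowest and control replicate 2 at the level of PTH replicate 2, and the difference was 0.29 (95% CI -0.24 to 0.83, limma adjusted p = 0.53). Without control replicate 1 it was 0.04, and with the slide row as a block 0.07. Its - probe stayed between -2.97 and -2.67. MM9LINCRNAEXON11712 differed by 0.03 (95% CI -0.16 to 0.23) on + and -0.09 (95% CI -0.34 to 0.15) on -. On MM9LINCRNAEXON10664 the + probe read 6.93, 7.40 and 7.09 on the control arrays and 7.31, 7.35 and 7.46 on the PTH arrays and differed by 0.23 (95% CI -0.04 to 0.50, limma adjusted p = 0.38), and the - probe by 0.08 (95% CI -0.10 to 0.25, limma adjusted p = 0.61). All 4 probes of MM9LINCRNAEXON11711 and MM9LINCRNAEXON11712 were well above background on every array, while the preceding number, MM9LINCRNAEXON11710+, was so on 0 of 6.

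**Figure D3:**
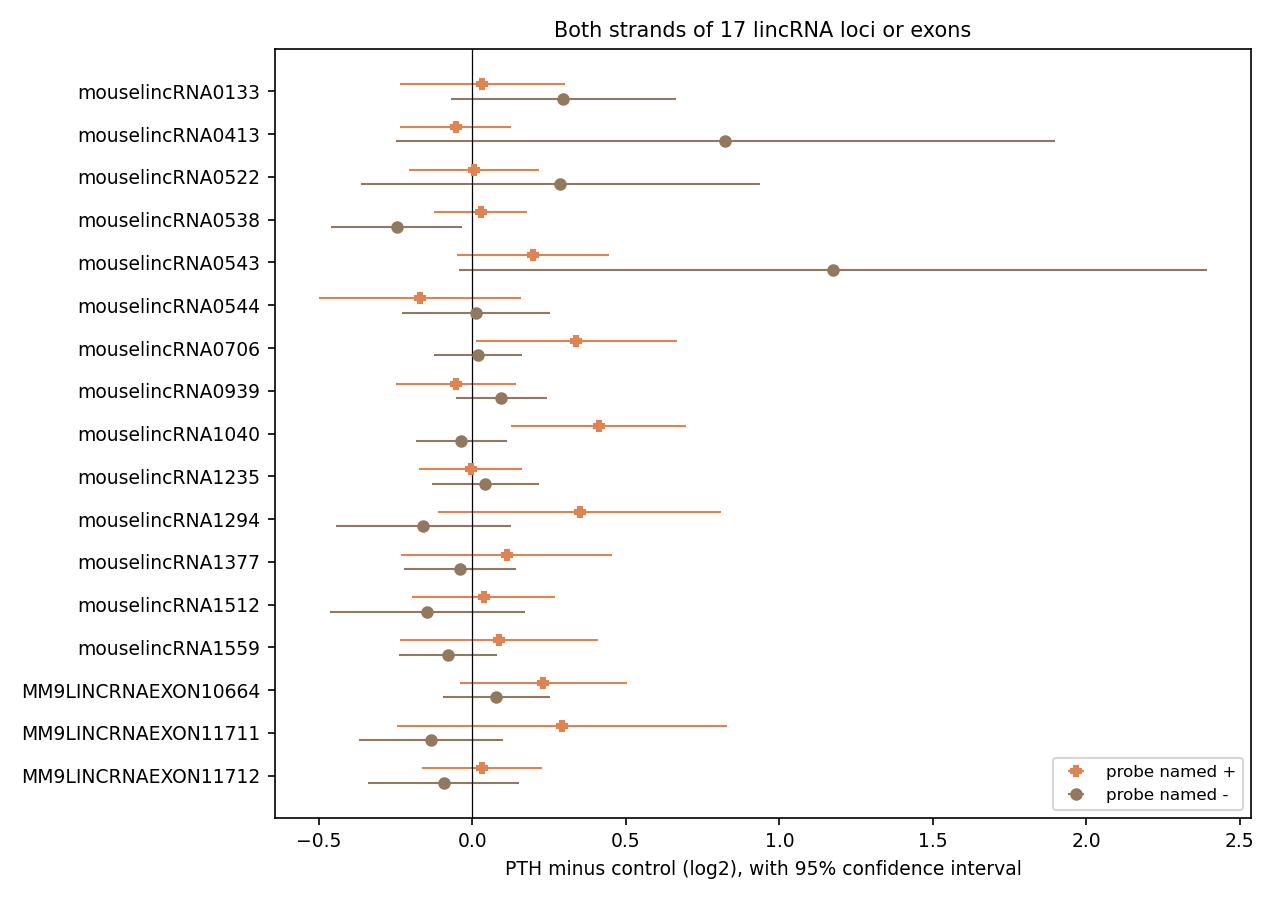
PTH minus control (log2) with its 95% confidence interval for the + and - probes of the 17 lincRNA loci and exons detected on both strands on all 6 arrays. The widest intervals belong to mouselincRNA0543- and mouselincRNA0413-, and 14 of the 17 have both intervals across 0.

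**Figure D4:**
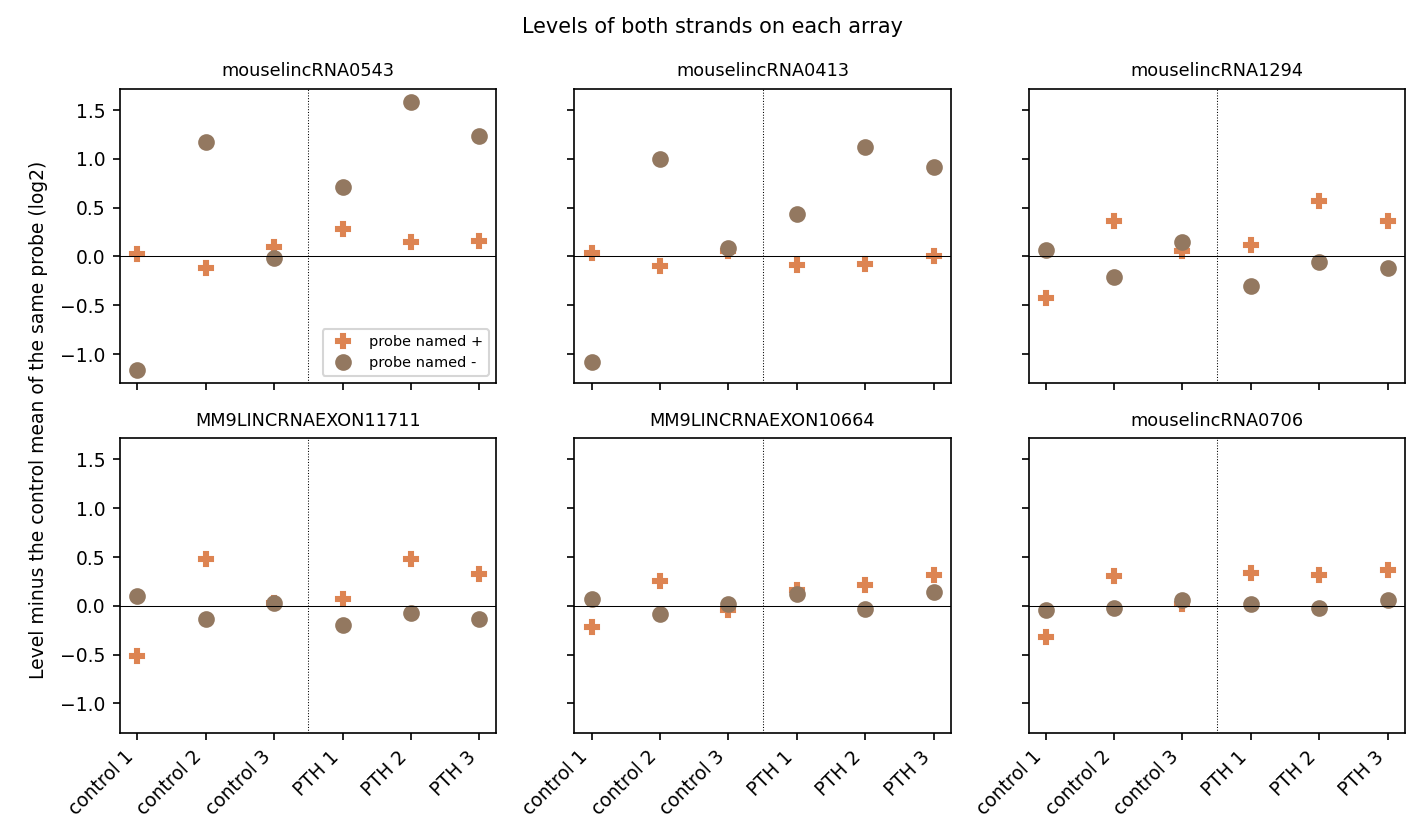
Level on each of the 6 arrays, minus the control mean of the same probe (log2), for both strands of 6 lincRNA numbers picked after their values were seen. The strand that varies is lowest on control replicate 1 in all 6 panels, and the other strand stays nearer to its control mean. That order holds for the panels picked. The probe mouselincRNA0522-, not shown, had a control range of 0.995 log2 units and was not lowest on control replicate 1. Its difference of 0.29 was 0.35 without control replicate 1 and 0.0051 without control replicate 2.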

How the data were processed

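RNA of 6 OCCM-30 cultures was measured on 6 one-colour arrays. The deposited values are spot intensities, which the authors obtained with Agilent Feature Extraction 11.0.1.1, per the submitters' processing notes; background was subtracted and trends removed within each array, per the file headers, with nothing done between arrays. Probes are annotated on mm9, per the file headers. Other deposited columns are 0 or 1 marks.

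Of 62939 spots, 1439 control and 300 negative-named spots were left out, as were spots marked as outliers (2 of the lincRNA probes' spots). From each log2 intensity the 75th percentile of its array was subtracted, and limma 3.58.1 (R 4.3.3) compared the groups (intensity trend, two-sided, Benjamini-Hochberg over 37011 probes), with at least 2 usable arrays per group. None of the lincRNA spots was saturated. Precision is bounded by the number of arrays. The fit was tested on simulated data. The lincRNA probes were chosen by their names, but that choice and the lists were made with earlier results of these data known.

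Named were tested probes past the threshold or, failing that, up to 8 per direction by unadjusted p, those at least 2-fold without overlap (1), numbers with both strands detected (17), exon numbers with 3 or more probes (0) and probes detected in 1 group alone (0). Others are named as chosen after their values were seen. Counts by chromosome were planned, but the names carry none. Alternatives were other scalings, normexp (offset 50), dim filters, no trend, array weights, replicate or slide row as a block, and leaving out each array. Normexp used the median spot signal.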

Additional observations from a re-analysis of the deposited data

How the results depend on the processing

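Of 197 lincRNA probes, 0 passed under the other scalings, normexp, both dim filters, no trend and either block, and 42 passed with array weights. Leaving out each array gave 0 to 14, with 14 only without control replicate 2. Over all probes the 2 calls became 9 with the replicate block, 16 with the slide row as a block, 11 in the upper row alone (chosen after seeing the data), 12170 with array weights and 2 to 5560 without single arrays. The weights favoured control replicate 3, at 9.42 against 0.32 for control replicate 2. At an unadjusted p under 0.05 the 13 lincRNA probes became 26 of 732 with no dim filter (3.55%, all probes 11%), 66 with array weights (33.5%, all probes 45.9%), 23 with the replicate block (11.7%, all probes 14.2%) and 8 to 38 without single arrays (4.06% to 19.3%, all probes 6.67% to 33.1%). Samples of one replicate number did not deviate together (r = 0.13, 0.0042 and -0.07). The 16 probes chosen by smallest p (8 per direction) come from the same arrays, and that choice largely fixes how they fare in these refits. Array weights brought 16 of them past the threshold, where the same fit called 32.9% of all probes. The removal of control replicate 2 brought 7, where that fit called 15% of all probes. The dim filters, the trend and the replicate block leave the differences of these probes as they are, and the slide row block and the upper row alone give one difference.

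Detection was 57.4% on control and 49.8% on PTH arrays by the scanner's weaker mark of a positive and significant signal, and 37.0% and 36.4% by the negative-spot threshold. By the weaker mark the lead over human-named probes was 5.83 percentage points. Loci with both strands detected numbered 28 by the negative-spot threshold and 40 when 1 array sufficed. Why results moved between these settings was not tested.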

Other observations

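The values here were picked out after they were seen, and no explanation of them was tested. The 15 mouselincRNA numbers with a probe for 1 strand alone had 0 probes well above background on any array, whereas 180 of the 317 numbers with both strands had at least 1 (40 on both strands and 140 on 1). Among exon numbers, 35 of the 59 with a single probe were well above background on at least 1 array. Of 10 pairs of consecutive exon numbers, 1 had a probe detected on all 6 arrays in both numbers, MM9LINCRNAEXON11711 and MM9LINCRNAEXON11712.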
